A study of Saccharomyces cerevisiae with 24 samples.

Results

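The data described here follow budding yeast that carry the E85Q allele of DIM1 through 2 h without a sulfur source. They were chosen as the 8 of 24 samples in the series that come from E85Q isolates 623 and 625: 4 libraries of mRNA and 4 libraries of ribosome footprints. Of 6304 genes with values, 4888 had a mean of at least 5 RPKM (reads scaled to gene length and library size) over the 12 libraries of each of the mRNA and footprint tables, and these were tested.

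The series asked how sulfur supply is tied to translation through methylation of 18S ribosomal RNA. Its strains are Saccharomyces cerevisiae of the CEN.PK background with the E85Q, D87E or wild-type (WT) form of Dim1, and each form is represented by 2 isolates. Each isolate was sampled after 2 h in sulfur-free medium and in logarithmic growth in the same medium with 1 mM methionine. Cells were collected by rapid filtration and frozen, and mRNA and footprint libraries came from the same lysate, which was made in a buffer with cycloheximide. The groups compared are therefore E85Q cells without sulfur and E85Q cells with methionine, and, for differences in the response, WT isolates 172 and 600 and D87E isolates 887 and 888 in the same media. Below, a pair of values is always given for E85Q isolate 623 first and 625 second, for WT isolate 172 first and 600 second, and for D87E isolate 887 first and 888 second.

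Dim1 uses S-adenosylmethionine to dimethylate a pair of adjacent adenosines in 18S rRNA, and it also takes part in assembly of the small ribosomal subunit. Yeast take up sulfate and reduce it to sulfide, which is joined to a carbon chain to make homocysteine, the precursor of both methionine and cysteine. When methionine and cysteine run short, the activator Met4, with Cbf1, Met28, Met31 and Met32, switches on this pathway, and cells cut back ribosome synthesis.

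The estimated depth of the E85Q mRNA libraries was 30000000 and 30900000 reads without sulfur, and 30700000 and 27400000 reads with methionine. That of the footprint libraries was 39200000 and 46900000 reads without sulfur, and 49100000 and 52600000 reads with methionine. A count of 3 reads in a gene of 1 kb corresponds to 0.0369 to 0.141 RPKM over the 24 libraries. Across genes, the 2 E85Q isolates correlated at Pearson 0.995 without sulfur and 0.997 with methionine in mRNA, and at 0.997 in both media in footprints. Genes of the a mating type were well measured, for example STE2, the alpha-factor receptor, at 260 and 269 RPKM of mRNA without sulfur against 261 and 267 RPKM with methionine. Of the alpha-specific genes, none of 4 passed the minimum, although SAG1 mRNA reached 12.5 RPKM in both starved isolates. The alleles are point mutations, which RPKM cannot show. DIM1 itself (chrXVI:39121-40077, sacCer3) had 17.2 and 17.7 RPKM of mRNA without sulfur against 92.1 and 91.2 RPKM with methionine, and 16.4 and 15.7 RPKM of footprints against 85.7 and 86.6 RPKM. Both E85Q isolates were lower without sulfur in both tables, with no overlap, and the log2 changes were -2.33 in mRNA (SE 0.06, adjusted p = 2.9e-10, limma on log2(RPKM + 1)) and -2.35 in footprints (SE 0.12, adjusted p = 5.3e-08). In WT cells DIM1 mRNA was 16.8 and 16.4 RPKM without sulfur and 78.0 and 77.4 RPKM with methionine, and in D87E cells it was 18.1 and 15.8 RPKM and 84.4 and 79.8 RPKM.

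Starvation of E85Q cells moved most of the transcriptome. By limma on log2(RPKM + 1) with Benjamini-Hochberg adjustment, 3757 of 4888 genes changed in mRNA at an adjusted p under 0.05: 2274 were higher without sulfur, which is 46.5% of genes tested, and 1483 were lower, which is 30.3%. In footprints 2192 genes were higher, 44.8%, and 1496 were lower, 30.6%. At least 2-fold changes were found in 443 higher and 614 lower genes of mRNA and in 466 higher and 655 lower genes of footprints, and at least 8-fold changes in 59 and 108 genes of mRNA. The falls were thus more numerous among the large changes, although higher genes were more numerous in all. The median gene stood 0.14 higher in mRNA and 0.13 higher in footprints on the log2 scale, so each list median below is given relative to the median of all genes tested. RPKM is a share within a library, so it cannot show a change in the total amount of mRNA or footprints per cell. Because 1 RPKM was added, a change of a gene near 0 is understated. A gene under 5 RPKM in 1 medium could pass the minimum only through higher values in other libraries, so the minimum favoured its change. In E85Q mRNA, SUL1, SUL2, MET2, MHT1, STR3, MMP1, OPT1 and PDC6 were that low with methionine. NSR1 and URA7 were that low without sulfur. The changes of such genes are given as a description.

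Sulfate uptake and reduction genes were among those that rose furthest. All 10 genes of this list rose in mRNA and in footprints, with a relative median log2 change of 6.70 in mRNA and 6.25 in footprints. SUL1, a high-affinity sulfate permease (chrII:789235-791814, sacCer3), had 2263 and 2279 RPKM of mRNA without sulfur against 1.57 and 1.53 RPKM with methionine, a log2 change of 9.80 (SE 0.08, adjusted p = 6.8e-14, limma). The isolates were nearly equal in each medium, and the 2 media were far apart. The second permease, SUL2, reached a lower level, 877 and 883 RPKM against 2.97 and 2.93 RPKM. Both permeases were under 5 RPKM of mRNA with methionine, so the minimum favoured their rises, which are given as a description. MET3, the ATP sulfurylase that activates sulfate, had 4880 and 4796 RPKM of mRNA without sulfur against 13.8 and 13.4 RPKM with methionine. MET14, the kinase of the next step, was at a similar height without sulfur, 4291 and 4259 RPKM, against 64.2 and 55.1 RPKM with methionine. The sulfite reductase subunits rose together: MET10 had 3168 and 3086 RPKM against 16.2 and 17.4 RPKM, and MET5 had 2505 and 2472 RPKM against 20.3 and 21.1 RPKM. MET8, which makes the sirohaem cofactor of that reductase, changed less, by 4.87 on the log2 scale, and MET22, a phosphatase that clears a nucleotide by-product of sulfate reduction, least, by 2.76. In total the 10 genes took 3.65% and 3.59% of summed RPKM of mRNA without sulfur, against 0.0412% and 0.0434% with methionine.

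**Figure D1:**
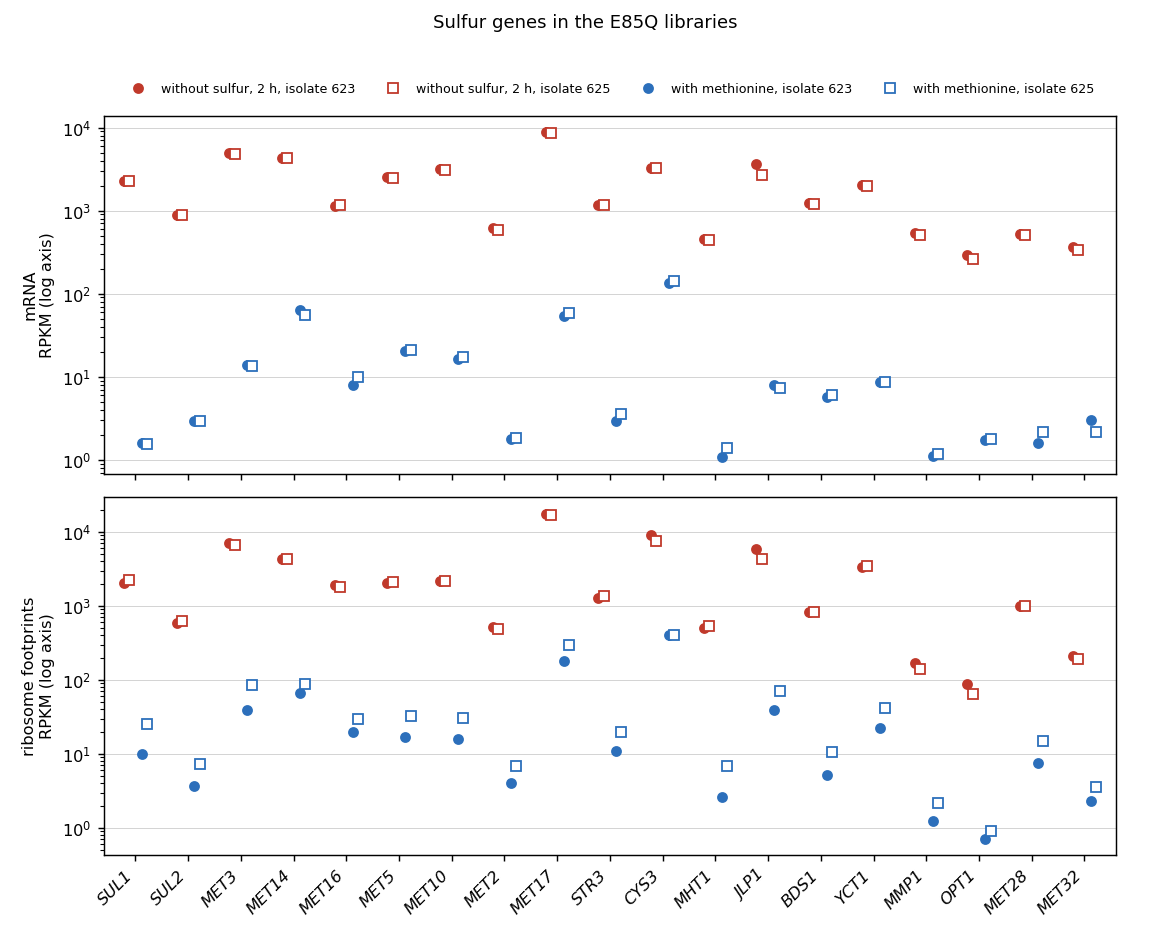
RPKM on a log axis of 19 genes of sulfur uptake and metabolism in the 4 E85Q mRNA libraries (top) and 4 footprint libraries (bottom). Red marks cells without sulfur and blue marks cells with methionine, with filled circles for isolate 623 and open squares for isolate 625. The media are well separated for every gene, and for SUL1 the 2 blue marks lie together in mRNA, at 1.57 and 1.53 RPKM, and apart in footprints, at 10.1 and 25.7 RPKM.

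Most genes that lead through homoserine to methionine rose. Of 9 genes, 7 rose and none fell in mRNA, and 6 rose and none fell in footprints, with a relative median of 2.1 in both. MET2, which acetylates homoserine, had 610 and 587 RPKM of mRNA without sulfur against 1.8 and 1.81 RPKM with methionine. MET17, which joins sulfide to that product, had 8769 and 8492 RPKM of mRNA without sulfur against 53.6 and 58.7 RPKM with methionine, and its footprints stood at 17669 and 17023 RPKM against 180 and 298 RPKM. Here too both isolates behaved alike. The methionine synthase MET6 was already high with methionine, at 678 and 722 RPKM, and reached 5497 and 5328 RPKM without sulfur. HOM3 and HOM6, the first and last enzymes from aspartate to homoserine, rose by 2.5 and 2.24 on the log2 scale, whereas HOM2, the enzyme between them, had 232 and 270 RPKM without sulfur against 280 and 289 RPKM with methionine (log2 change -0.18, SE 0.15, adjusted p = 0.28, limma). Of the methylenetetrahydrofolate reductases, MET13 rose by 1.22 and MET12 by 0.24.

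Genes of the S-adenosylmethionine (SAM) cycle and of methylthioadenosine salvage did not move as one. Of 12 genes, 6 rose and 6 fell in mRNA, and 6 rose and 5 fell in footprints, and the relative medians were -0.15 and 0.07. MHT1, which makes methionine from S-methylmethionine, had 453 and 439 RPKM of mRNA against 1.07 and 1.39 RPKM. Its relative SAM4, which uses SAM as the donor, had 59.5 and 56.6 RPKM against 109 and 111 RPKM, a log2 change of -0.91 (SE 0.14, adjusted p = 0.00013, limma). Both SAM synthetases rose, SAM2 by 3.05 and SAM1 by 1.67, whereas SAH1, which clears the S-adenosylhomocysteine left by methylation, had 839 and 891 RPKM against 1215 and 1311 RPKM and fell by 0.55. SPE2, which commits SAM to polyamine synthesis, fell by 1.41, to 16.9 and 15.3 RPKM without sulfur against 44.5 and 44.6 RPKM with methionine. The salvage pathway that returns the spent methylthio group to methionine was split as well: ADI1, its last dioxygenase, rose by 3.54 and UTR4 by 0.99, but MEU1, its first enzyme, fell by 1.39 and MRI1 by 0.43. MDE1 of the same pathway rose by 0.54 in TE (log2 footprints minus log2 mRNA), with 63.1 and 59.2 RPKM of footprints without sulfur against 36.9 and 37 RPKM with methionine and 61.3 and 61.1 RPKM of mRNA against 54.7 and 53.5 RPKM.

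Of 5 genes of transsulfuration, the route between homocysteine and cysteine, 4 rose and 1 fell in each table. STR3 and CYS3, the lyases that open cystathionine toward homocysteine and toward cysteine, had 1157 and 1174 RPKM and 3259 and 3292 RPKM of mRNA without sulfur, against 2.91 and 3.58 RPKM and 135 and 142 RPKM with methionine. CYS4 rose by 3.25 and STR2 by 0.95. IRC7, a cysteine-degrading lyase, fell, with 14 and 12.8 RPKM against 32.9 and 35.3 RPKM of mRNA and 4.3 and 4.07 RPKM against 38.6 and 39.8 RPKM of footprints.

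Glutathione is a store of cysteine in yeast. Of 12 genes for its synthesis, transport and breakdown, 8 rose and 2 fell in mRNA and 10 rose and 1 fell in footprints. OPT1, a glutathione transporter, had 293 and 264 RPKM of mRNA without sulfur against 1.75 and 1.8 RPKM with methionine, a log2 change of 6.65 (SE 0.07). DUG3 and DUG2, subunits of a complex that degrades glutathione in the cytosol, rose by 4.22 and 2.28, and ECM38, the vacuolar gamma-glutamyl transferase, by 1.80. GSH1, the first enzyme of synthesis, rose by 3.23, whereas GSH2, the second, had 101 and 99.8 RPKM of mRNA against 100 and 97.8 RPKM (adjusted p = 0.75, limma). YCF1, which pumps glutathione conjugates into the vacuole, fell by 0.36.

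Genes for the uptake and use of organic sulfur compounds rose as well. Of 10 genes, 9 rose and 1 fell in both tables, with a relative median of 6.77 in mRNA and 5.90 in footprints. JLP1, a dioxygenase that frees sulfite from sulfonates (chrXII:25756-26994, sacCer3), had 3592 and 2708 RPKM of mRNA without sulfur against 7.91 and 7.25 RPKM with methionine. Isolate 625 stayed below isolate 623 here, and it did so in the footprints too, at 4366 RPKM against 5964 RPKM in isolate 623. BDS1, a sulfatase that releases sulfate from organic esters, had 1222 and 1190 RPKM against 5.73 and 6 RPKM, and YCT1, a cysteine transporter, had 2009 and 1956 RPKM against 8.69 and 8.72 RPKM. The permeases for S-methylmethionine and SAM, MMP1 and SAM3, reached 539 and 509 RPKM and 609 and 555 RPKM, against 1.1 and 1.17 RPKM and 16.8 and 17.2 RPKM. MUP1, the high-affinity methionine permease, was the least induced of the 9, with 1678 and 1591 RPKM against 115 and 115 RPKM. The gene that fell was AGP1, a broad-range amino acid permease, with 13.6 and 12.4 RPKM against 91.4 and 95.5 RPKM. PDC6, a pyruvate decarboxylase isoform poor in sulfur amino acids, also rose, with 1745 and 1189 RPKM against 3.38 and 3.05 RPKM, and isolate 625 was again the lower one without sulfur.

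Among regulators of the pathway 5 of 6 rose in both tables. MET28 and MET32, cofactors of Met4, rose by 7.5 and 6.63 in mRNA, MET4 itself by 1.13 and CBF1 by 0.87. MET31, the near relative of MET32, fell by 1.84, to 7.25 and 7.3 RPKM without sulfur against 29.6 and 27.8 RPKM with methionine. MET30, the F-box protein that restrains Met4, rose to 165 and 150 RPKM against 26.2 and 28.2 RPKM. Thiolation of tRNA wobble uridines consumes sulfur, and of its 6 genes 3 fell and 2 rose in mRNA. Over all genes tested, 30.3% fell and 46.5% rose. NCS2 fell by 2.04, URM1 by 1.12 and NCS6 by 0.60, and the genes that rose did so by at most 0.30. NFS1, the cysteine desulfurase, had 94.7 and 89.7 RPKM against 83.5 and 84.3 RPKM (adjusted p = 0.066, limma). BIO2, biotin synthase, whose product contains sulfur, had 33.5 and 32.9 RPKM without sulfur against 32.9 and 32 RPKM with methionine (adjusted p = 0.79, limma), and VHT1, the biotin transporter, rose by 0.92.

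Iron uptake genes rose in E85Q cells. Of 19 genes, 15 passed the minimum and all 15 rose in both tables, with relative medians of 1.39 in mRNA and 1.08 in footprints. Over all genes tested, 46.5% rose in mRNA and 44.8% in footprints. After centring, 15 remained higher in mRNA and 14 in footprints. One of the 15, FRE5, passed the minimum through the starved WT and D87E libraries alone. ARN1, a siderophore transporter, had 152 and 126 RPKM of mRNA without sulfur against 24.3 and 24.3 RPKM with methionine. FIT3, a cell wall mannoprotein that retains siderophores, had 41.9 and 34 RPKM of mRNA against 7.81 and 6.93 RPKM, and 81.9 and 56.4 RPKM of footprints against 3.36 and 1.24 RPKM. Both isolates were higher without sulfur, and for both genes isolate 623 was above isolate 625. TIS11 (CTH2), which degrades mRNAs of iron-using proteins when iron is short, rose by 4.44, to 130 and 102 RPKM against 5.13 and 3.67 RPKM. Of 20 genes of iron-sulfur cluster assembly 5 rose and 5 fell in mRNA: the scaffold ISU1 rose by 0.66 and the ferredoxin YAH1 fell by 1.52. Since 46.5% of all genes tested rose and 30.3% fell in mRNA, calls were less common in this list than among all genes.

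Most genes of ribosome assembly fell. All 49 genes of the small-subunit processome, all 59 genes of 60S assembly and all 8 of the snoRNP core fell in mRNA and in footprints. Their relative medians in mRNA were -2.93, -3.03 and -2.75, and in footprints -2.97, -2.92 and -2.96. NSR1, the nucleolin of yeast, had the largest fall of all genes, to 4.07 and 3.46 RPKM of mRNA without sulfur against 266 and 263 RPKM with methionine (log2 change -5.80, SE 0.16, adjusted p = 3.2e-10, limma). NOP58 of the box C/D snoRNP had 16.2 and 18.4 RPKM against 238 and 245 RPKM. The late pre-40S factors, with which Dim1 leaves the nucleolus, were led by LTV1, which fell by 3.64: of 18 genes, DIM1 among them, 17 fell in mRNA and in footprints, by a relative median of -1.93 in mRNA, while HRR25, a casein kinase with other tasks as well, rose by 0.24. All 25 enzymes that modify rRNA and tRNA fell, with a relative median of -2.0, among them KRE33, the acetyltransferase of 18S rRNA, with 4.94 and 5.54 RPKM against 55 and 59.8 RPKM.

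Genes of RNA polymerases I and III were mostly lower. Of 11 polymerase I genes 8 fell, with a relative median of -2.56, and RPA135, its second-largest subunit, had 10 and 11.2 RPKM against 128 and 139 RPKM. Of 21 polymerase III genes 12 fell and 7 rose, with a relative median of -1.0, and MAF1, its repressor, rose by 0.62. Among regulators of ribosome genes, CRF1, a corepressor of ribosomal protein genes, rose to 40.2 and 26.4 RPKM against 2.14 and 1.68 RPKM, and IFH1, their coactivator, fell by 0.85. The paired repressors of ribosome assembly genes parted: TOD6 fell by 3.42 and DOT6 rose by 0.90 in mRNA.

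Of 138 cytosolic ribosomal protein genes 127 had values and all of these were tested: 125 fell and 1 rose in mRNA, while 124 fell and 1 rose in footprints. Together they took 6.25% and 8.2% of summed RPKM of mRNA without sulfur against 32.2% and 32% with methionine, and 6.37% and 7.47% of footprints against 34.7% and 33.7%. Isolate 625 kept the larger share without sulfur in both tables, and the 2 media did not overlap. RPL12A fell most in mRNA, to 111 and 166 RPKM against 1663 and 1633 RPKM. The paralog pairs were not always alike: RPS9B had 322 and 456 RPKM against 2985 and 2908 RPKM, whereas RPS9A had 62.9 and 70.3 RPKM against 119 and 127 RPKM. The gene that rose was RPL15B, with 46.7 and 34.7 RPKM of mRNA against 33.1 and 23.5 RPKM (log2 change 0.51, SE 0.17, adjusted p = 0.015, limma). Its call was lost without isolate 623 in the starved group (0.31) and without isolate 625 in the methionine group (0.28). How reads shared by such near-identical copies were assigned is not given in the sources used here, so values of single copies are uncertain. Of 72 mitochondrial ribosomal protein genes tested, 69 fell and 1 rose in mRNA, with a relative median of -0.82.

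**Figure D2:**
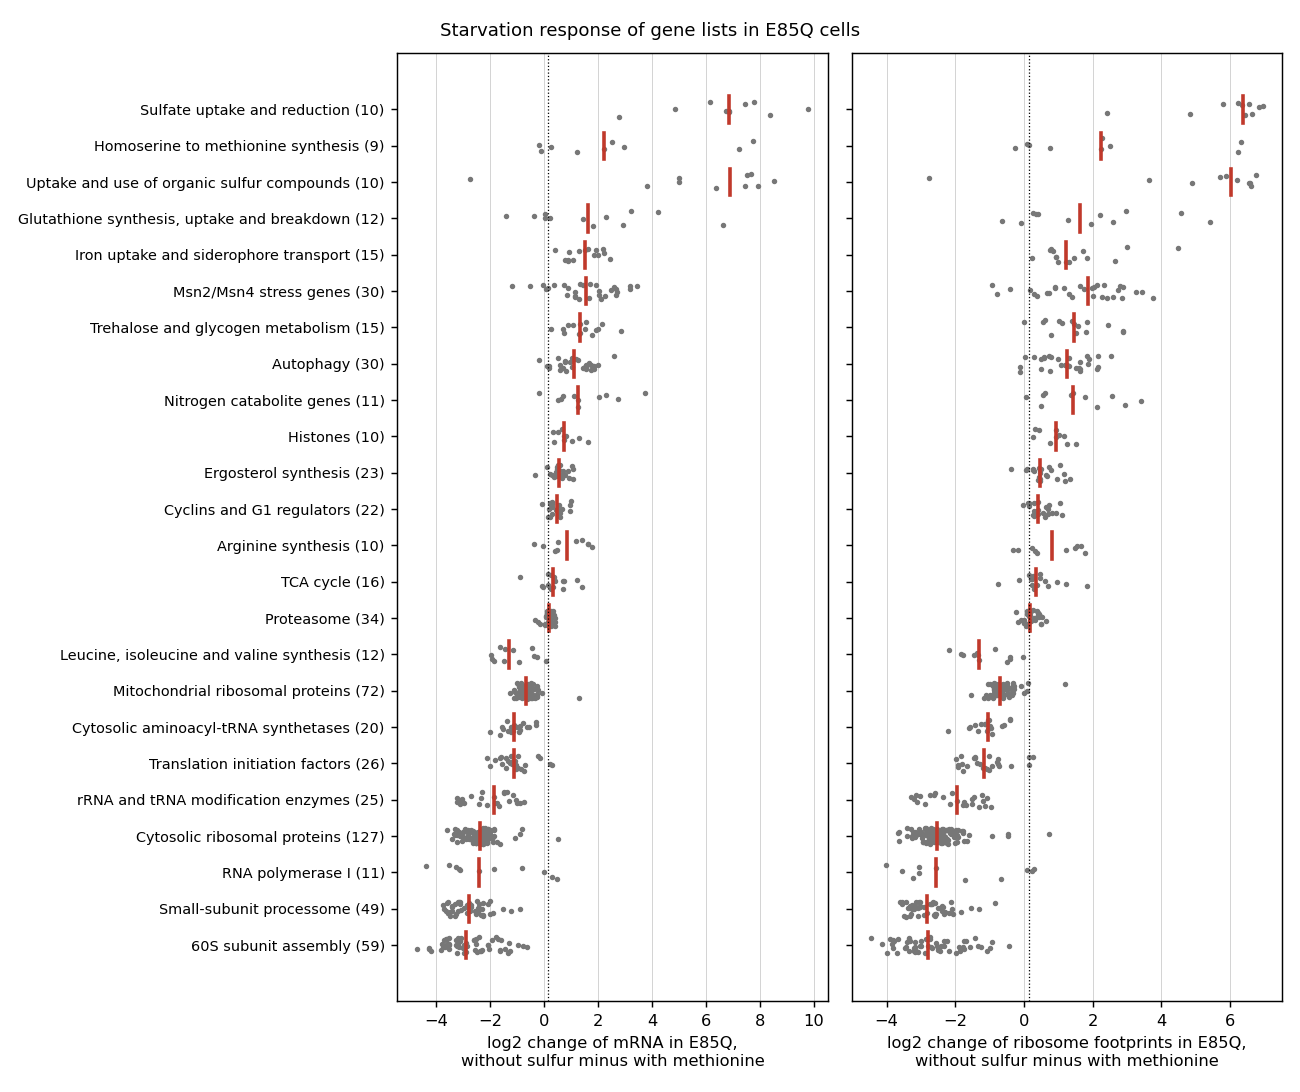
Log2 change (without sulfur minus with methionine, log2(RPKM + 1)) of every tested gene of 24 lists in E85Q cells, mRNA on the left and footprints on the right. Grey dots are genes, red bars are list medians, the dotted line is the median of all genes tested, and the number tested is in brackets; the sulfate genes, with a relative median of 6.70 in mRNA, lie far to the right of that line, and the 60S assembly genes, with -3.03, far to its left.

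Translation factor genes were lower too. Of 26 initiation factor genes 24 fell, with a relative median of -1.26, and TIF4631, the eIF4G scaffold, had 36.3 and 38.9 RPKM against 160 and 170 RPKM. Of 9 elongation and termination factors 8 fell, with a relative median of -1.96. The exception was CAM1, a subunit of elongation factor 1B, which rose to 241 and 230 RPKM against 152 and 165 RPKM, while TEF4, the other gene for that subunit, fell to 181 and 207 RPKM against 699 and 733 RPKM. All 20 cytosolic aminoacyl-tRNA synthetase genes fell, with a relative median of -1.24 in mRNA. SSB1, a chaperone that binds nascent chains, fell by 3.0, to 159 and 258 RPKM against 1524 and 1736 RPKM.

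Amino acid pathways outside sulfur metabolism moved in different directions. In serine synthesis, which supplies the carbon of cysteine, the isoforms of the first enzyme exchanged places: SER33 (chrIX:221081-222490, sacCer3) had 1827 and 1744 RPKM of mRNA without sulfur against 54.6 and 52.7 RPKM with methionine, and SER3 (chrV:322686-324095, sacCer3) had 27 and 28.4 RPKM against 231 and 214 RPKM. Both isolates showed it, with log2 changes of 5.03 and -2.96 (SE 0.07 and 0.09). CHA1, a serine and threonine deaminase, rose by 2.72. Of 10 arginine genes 8 rose and 1 fell in mRNA, among them ARG5,6, with 532 and 597 RPKM against 144 and 187 RPKM. Of 12 genes of leucine, isoleucine and valine synthesis 11 fell and none rose, with a relative median of -1.43, and LEU2 had 84.3 and 86.8 RPKM against 319 and 335 RPKM. Of 10 lysine genes 5 fell and 2 rose, and LYS4 had 70.5 and 80.6 RPKM against 194 and 222 RPKM. Of 11 permeases with other substrates 8 fell and 3 rose. DIP5, for glutamate and aspartate, fell to 4.88 and 4.84 RPKM against 121 and 117 RPKM, whereas PUT4, for proline, rose to 65.7 and 54.6 RPKM against 5.26 and 4.47 RPKM.

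Most genes of nitrogen supply rose too. Of 11 genes of the nitrogen catabolite list 10 rose and 1 fell in mRNA, with a relative median of 1.1 in mRNA and 1.29 in footprints. DAL3, of allantoin breakdown, had 63 and 57.1 RPKM against 8.04 and 8.21 RPKM. MEP2, a high-affinity ammonium permease, rose to 78.8 and 79.2 RPKM of mRNA against 9.5 and 10.7 RPKM, and GLN1, glutamine synthetase, fell to 88.7 and 85.7 RPKM against 836 and 815 RPKM. Both isolates shared each of these directions.

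Nucleotide synthesis was mostly lower. In de novo purine synthesis 8 of 11 genes fell, with a relative median of -0.84 in mRNA, and ADE5,7 had 155 and 171 RPKM against 414 and 467 RPKM. The exceptions were ADE3, a one-carbon folate enzyme, which rose to 630 and 669 RPKM against 248 and 288 RPKM, and ADE12, which rose by 0.32. The ADE12 call was lost without isolate 623 with methionine (0.29), without isolate 625 without sulfur (0.30) and after centring (0.23). Of 14 genes for GTP, CTP and pyrimidines 11 fell and 3 rose. URA7, the major CTP synthase, had 3.54 and 4.63 RPKM without sulfur against 149 and 156 RPKM with methionine, while its minor isoform URA8 rose by 0.52, to 52.8 and 51 RPKM against 34.2 and 37.7 RPKM.

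Storage carbohydrate genes rose and glycolysis was split. All 15 tested genes of trehalose and glycogen metabolism, of 18 on the list, rose in mRNA and 14 rose in footprints, with relative medians of 1.20 and 1.32. GPH1, glycogen phosphorylase, had 94 and 76.8 RPKM of mRNA against 12.8 and 9.47 RPKM. Of 15 genes of lower glycolysis and fermentation 6 rose and 6 fell in mRNA. ENO1 rose to 2657 and 2521 RPKM against 695 and 722 RPKM, and PDC1, the main pyruvate decarboxylase, fell to 5040 and 5291 RPKM against 7722 and 8431 RPKM. Of the enzymes that phosphorylate glucose, GLK1 rose by 2.05 and HXK2 fell by 0.95. Of 16 genes of the tricarboxylic acid (TCA) cycle 11 rose and 1 fell, and of 33 nuclear genes of oxidative phosphorylation 9 rose and 2 fell in mRNA and 16 rose and none fell in footprints. Over all genes tested, 46.5% rose in mRNA and 44.8% in footprints, and the relative median of the oxidative phosphorylation genes in mRNA was 0.01. Centring on the median of all genes left the oxidative phosphorylation genes at 6 higher and 4 lower in mRNA. In footprints it left 15 higher and 1 lower. The low-oxygen isoforms of cytochrome c and of a cytochrome oxidase subunit, CYC7 and COX5B, rose by 2.57 and 1.37, whereas CYC1, the main cytochrome c, fell to 610 and 598 RPKM against 988 and 941 RPKM of mRNA.

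Most targets of the general stress response rose, and more cytosolic chaperone genes fell than rose. Of 30 target genes of the stress factors Msn2 and Msn4, 25 rose and 2 fell in mRNA, with a relative median of 1.41 in mRNA and 1.72 in footprints, and TMA10 had 413 and 344 RPKM of mRNA against 41.1 and 27.7 RPKM. Of 22 cytosolic heat shock chaperone genes 14 fell and 5 rose, with a relative median of -0.82, and the Hsp40 gene YDJ1 had 81.1 and 87.8 RPKM against 299 and 294 RPKM. In the thioredoxin, peroxiredoxin and superoxide list 20 of 24 rose and 1 fell. Its most induced gene was MXR1, a methionine sulfoxide reductase, with 961 and 919 RPKM against 29.7 and 27 RPKM, a log2 change of 5.00 (SE 0.08).

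Of 30 autophagy genes tested, 26 rose and 1 fell in mRNA and 27 rose and none fell in footprints, with relative medians of 0.98 and 1.12. ATG9, the membrane protein of the autophagosome source vesicles, had 51.7 and 45.8 RPKM of mRNA against 7.35 and 7.14 RPKM, and 21.2 and 21.4 RPKM of footprints against 5.3 and 5.28 RPKM. ATG1, the kinase that starts the process, rose by 1.99 in mRNA. In the target of rapamycin complex 1 (TORC1) list 13 of 20 rose and none fell, with a relative median of 0.10, and after centring 10 of 20 were higher, against 1967 of 4888 genes in all. Among them was IML1, which restrains TORC1 when amino acids are short and rose by 1.35. Histone genes rose in mRNA in 9 of 10 cases, and the linker histone HHO1 had 250 and 249 RPKM against 101 and 98.6 RPKM. How far reads from other histone transcripts reached the table is not given in the sources used here. Of 22 cyclins and G1 regulators 19 rose and none fell, 15 after centring on the median of all genes, and the G1 repressor WHI5 rose by 0.98.

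Most ergosterol genes rose. Of 23 ergosterol genes 22 rose and 1 fell in mRNA, with a relative median of 0.41, and 18 remained higher after centring on the median of all genes. ERG3, a sterol desaturase, had 473 and 445 RPKM against 214 and 223 RPKM. CHO2, which uses SAM to methylate phosphatidylethanolamine, rose to 425 and 402 RPKM against 204 and 196 RPKM. OLE1, the fatty acid desaturase, rose by 1.05, and ELO2 and ELO3, the elongases of very long chains, fell by 1.04 and 1.41. In the cell wall, CWP1 rose to 168 and 154 RPKM against 21.6 and 20.9 RPKM and UTR2 fell by 1.41. ZRT1, the high-affinity zinc transporter, fell to 3.79 and 4.22 RPKM of mRNA against 20.5 and 22.6 RPKM.

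Footprints mostly followed mRNA. In translation efficiency (TE), taken as log2 footprints minus log2 mRNA in the same sample, 303 of 4888 genes changed: 94 were higher without sulfur, 1.92%, and 209 were lower, 4.28%. After centring on the median of all genes the split was 184 higher and 166 lower. TE calls rested on few libraries: leaving out one E85Q sample gave 96 calls (isolate 623 with methionine), 161 (isolate 623 without sulfur), 122 (isolate 625 with methionine) and 120 (isolate 625 without sulfur). A change of at least 8-fold in TE was found in 1 higher and 3 lower genes. In 11 genes mRNA rose while footprints fell, and in 3 genes mRNA fell while footprints rose.

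**Figure D3:**
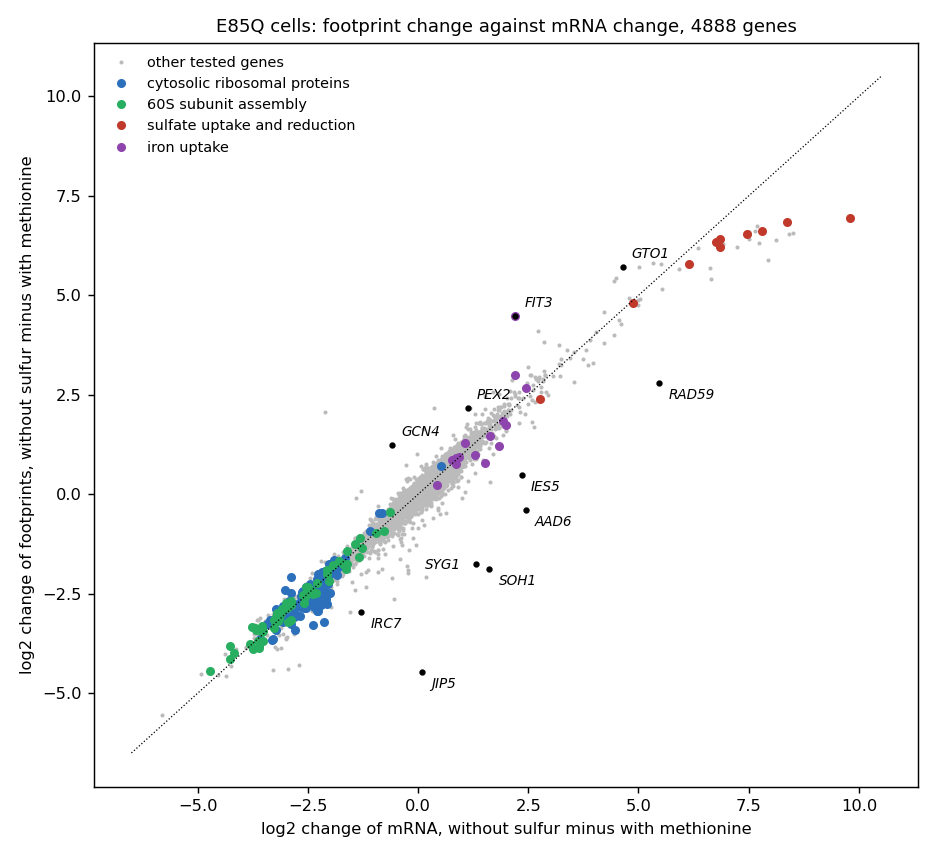
Log2 change of footprints against log2 change of mRNA for 4888 genes in E85Q cells (without sulfur minus with methionine). Sulfate genes are red, iron uptake genes purple, ribosomal protein genes blue and 60S assembly genes green, and the dotted diagonal marks equal changes; the labelled genes, such as JIP5 at 0.10 in mRNA and -4.47 in footprints, lie off it.

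JIP5, a gene needed for 60S subunit synthesis (chrXVI:878690-880168, sacCer3), had 59.6 and 57 RPKM of mRNA without sulfur against 55.3 and 53.5 RPKM with methionine, but 0.67 and 0.589 RPKM of footprints against 35.8 and 34.6 RPKM. Its mRNA levels nearly met while its footprints were almost lost in both isolates, a TE change of -4.57 (adjusted p = 6e-08, limma). SOH1, a Mediator subunit (chrVII:270392-270775, sacCer3), had 110 and 110 RPKM of mRNA against 34.3 and 36 RPKM, and 9.74 and 12.3 RPKM of footprints against 44.3 and 41.7 RPKM. SYG1, a plasma membrane protein (chrIX:265115-267823, sacCer3), had 131 and 126 RPKM of mRNA against 49.8 and 52.8 RPKM, and 4.11 and 3.2 RPKM of footprints against 15.2 and 13.9 RPKM. In both genes the 2 tables moved in opposite directions in each isolate. RAD59, a recombination protein (chrIV:344237-344953, sacCer3), had 322 and 297 RPKM of mRNA against 6.33 and 5.7 RPKM, and 48.2 and 47.4 RPKM of footprints against 6.25 and 5.81 RPKM. Thus its footprints rose 2.80 on the log2 scale and its mRNA 5.47. IES5, of the INO80 complex, behaved likewise, with 157 and 144 RPKM of mRNA against 29.3 and 27.7 RPKM and 95.4 and 90.3 RPKM of footprints against 67.6 and 63.9 RPKM. In NCS6, of tRNA thiolation, and in IRC7 both tables fell and footprints fell further, with TE changes of -1.50 and -1.67. AAD6 had a TE change of -2.85, but it lies beside a related frame, AAD16, and how reads of the 2 frames were counted is not given in the sources used here.

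Other genes gained footprints per mRNA. GCN4, the activator of amino acid synthesis genes whose own translation is held down by short upstream frames (chrV:138918-139763, sacCer3), had 776 and 798 RPKM of mRNA without sulfur against 1200 and 1166 RPKM with methionine, and 295 and 258 RPKM of footprints against 117 and 116 RPKM. Both isolates therefore had less message and more footprints, a TE change of 1.82 (adjusted p = 0.0022, limma). Among the lists of amino acid synthesis genes, arginine genes were mostly higher and those of leucine, isoleucine and valine mostly lower, as given above. OPT2, an oligopeptide transporter gene, had 4.73 and 4.73 RPKM of mRNA against 13.9 and 14.4 RPKM but 5 and 5.67 RPKM of footprints against 5.44 and 5.94 RPKM. PEX2, of peroxisome import, had 58.6 and 59.3 RPKM of mRNA against 27.1 and 25.8 RPKM, and 35.1 and 36.4 RPKM of footprints against 8.12 and 6.38 RPKM. CHA1 and MEP2 gained 1.38 and 0.98 in TE above their rises in mRNA, and FIT3 gained 2.25. YJR149W, which resembles nitronate monooxygenases, had similar mRNA, 9.72 and 9.45 RPKM against 9.48 and 8.14 RPKM, and 7.86 and 8.52 RPKM of footprints against 2.48 and 1.48 RPKM.

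**Figure D4:**
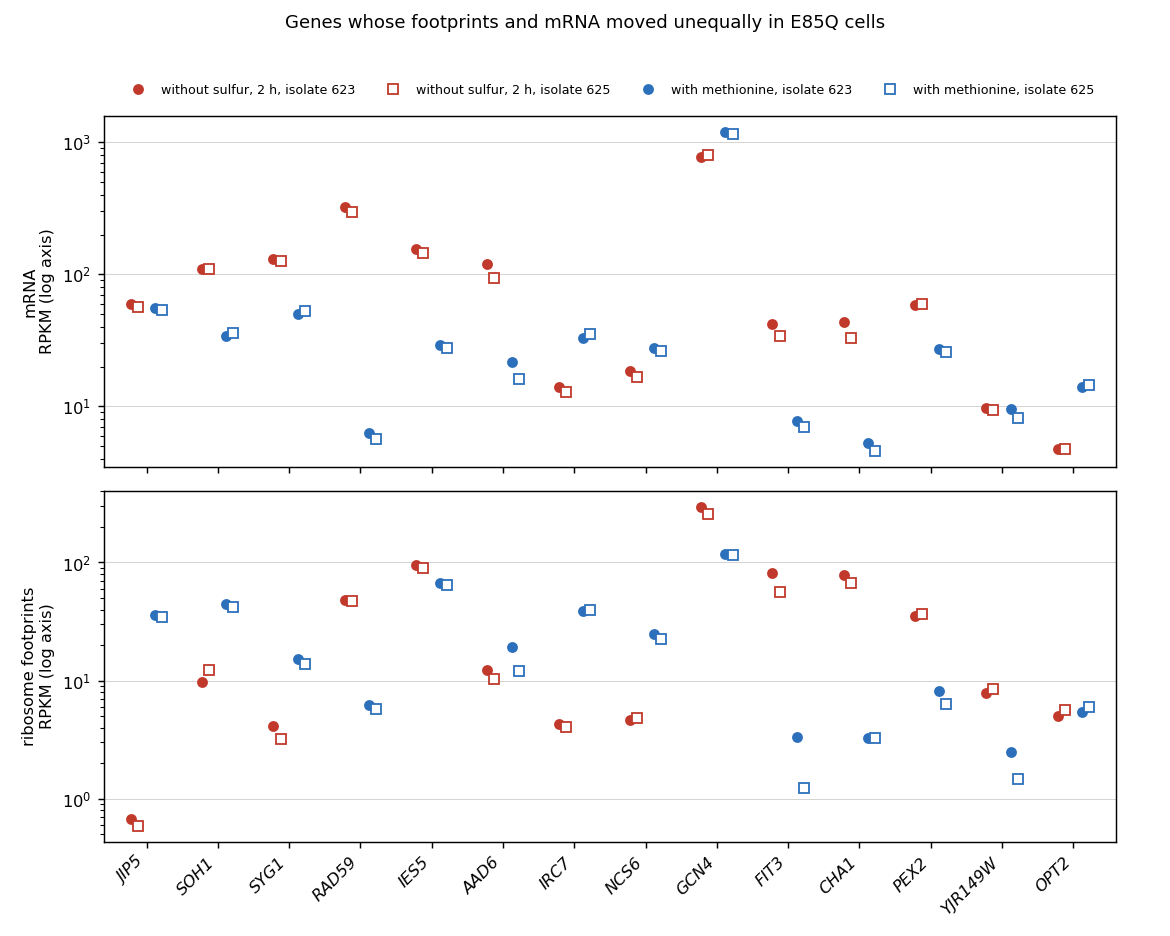
RPKM on a log axis of 14 genes with changed TE in E85Q cells, mRNA at the top and footprints at the bottom, with red for cells without sulfur, blue for cells with methionine, filled circles for isolate 623 and open squares for isolate 625. For JIP5 the mRNA marks lie together and the red footprint marks lie at 0.67 and 0.589 RPKM, far below the blue ones.

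Sulfur genes were also among those with lower TE, but their low values with methionine differed between the isolates and tables. In the sulfate list 6 of 10 genes were lower in TE, SUL1 by 2.84. SUL1 footprints with methionine were 10.1 RPKM in isolate 623 and 25.7 RPKM in isolate 625, although its mRNA was 1.57 and 1.53 RPKM there. Over the 20 most induced genes, footprints with methionine were 0.497% to 1.02% of those without sulfur in isolate 623 and 1.14% to 1.75% in isolate 625, a narrow band, whereas mRNA spread from 0.0695% to 0.827% and from 0.0671% to 0.864%. The lowest of these footprint ratios was then treated as carried over from the starved sample of the same isolate and subtracted. SUL1 set that ratio in both isolates, so the subtraction removed all its footprints with methionine. Its TE change then had to rise, to 1.26, and that of MET3 became 1.35. No direction of TE is read for strongly induced sulfur genes. The size of their footprint changes is uncertain for the same reason. Nothing is read from the smaller relative medians of footprints than of mRNA in the sulfate and organic sulfur lists.

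The response of E85Q cells was set against that of WT and of D87E cells by the difference of the log2 changes. Both differences use the same E85Q libraries. Against WT, 579 genes (11.8%) changed further upward in E85Q cells in mRNA and 2375 (48.6%) further downward, and against D87E 489 (10%) and 2330 (47.7%). The median gene was lower by 0.28 in both, and after centring the splits were 1342 and 986 genes against WT and 1212 and 914 against D87E. In footprints 673 genes (13.8%) were higher and 1352 (27.7%) lower against WT, 1107 and 774 after centring, and 800 (16.4%) higher and 917 (18.8%) lower against D87E, 1073 and 729 after centring. Without the methionine footprint library of D87E isolate 887 or 888, the total against D87E was 1078 or 1069 rather than 1717. In TE 852 genes (17.4%) were higher and 217 (4.44%) lower against WT, and 1609 (32.9%) higher and 219 (4.48%) lower against D87E. Centring changed these to 373 and 389 genes and to 506 and 520. These counts also depended on single libraries. Against WT the 1069 calls became 385 without WT isolate 600 with methionine, 404 without E85Q isolate 625 without sulfur, 436 without E85Q isolate 623 with methionine and 688 without WT isolate 172 without sulfur. Against D87E the 1828 calls became 1187 without D87E isolate 888 with methionine and 1147 without E85Q isolate 625 without sulfur.

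Ribosomal protein genes fell less in E85Q cells than in the other strains. Their median log2 change of mRNA was -2.36 in E85Q cells, -3.83 in D87E cells and -4.13 in WT cells, and of 127 genes 114 were higher and none lower in the difference from WT, and 107 higher and 1 lower in the difference from D87E. After 2 h without sulfur they took 6.25% and 8.2% of summed mRNA RPKM in E85Q isolates, against 2.32% and 2.06% in WT isolates and 3.49% and 2.19% in D87E isolates. With methionine the shares were 32.2% and 32% in E85Q isolates, against 29.6% and 31.1% in WT isolates and 31.1% and 30.9% in D87E isolates. In footprints 71 genes were higher and 2 lower against WT. In TE the difference went the other way, with 39 lower and 1 higher against WT and 14 lower and 2 higher against D87E. Over all genes, 4.44% and 4.48% were lower in TE. RPS9A (chrXVI:404950-406044, sacCer3) had the largest positive difference from WT in mRNA, 3.57 (SE 0.35, adjusted p = 6.9e-05, limma). Its mRNA was 62.9 and 70.3 RPKM in starved E85Q cells and 18.4 and 16.3 RPKM in starved WT cells. With methionine it was 119 and 127 RPKM in E85Q cells, against 388 and 407 RPKM in WT cells, so the 2 strains differed in the other direction with methionine. RPS22B had the same form, with 115 and 103 RPKM in starved E85Q cells and 40.2 and 36.3 RPKM in starved WT cells, and 208 and 176 RPKM with methionine in E85Q cells against 556 and 534 RPKM in WT cells.

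Other metabolic lists also had more genes higher than lower in the difference from WT in mRNA, before and after centring on the median of all genes. Of 20 aminoacyl-tRNA synthetase genes 15 were higher against WT and 14 against D87E, and none was lower. Of 12 genes of leucine, isoleucine and valine synthesis 9 were higher and 1 lower against WT. LEU1, isopropylmalate isomerase, had 190 and 212 RPKM of mRNA in starved E85Q cells, against 40.6 and 36.4 RPKM in WT cells and 51.7 and 40.7 RPKM in D87E cells. With methionine it had 533 and 595 RPKM in E85Q cells, against 717 and 678 RPKM in WT cells. The difference from WT was 2.66 (SE 0.16, adjusted p = 6.6e-06, limma) and from D87E 2.36. In lower glycolysis and fermentation 10 of 15 genes were higher and 1 lower against WT, and in the TCA cycle 12 of 16 were higher and none lower. PDC1 had 5040 and 5291 RPKM in starved E85Q cells against 1632 and 1372 RPKM in WT cells, and TDH2, a glyceraldehyde-3-phosphate dehydrogenase with close paralogs, had 974 and 1182 RPKM against 451 and 379 RPKM. With methionine, the lower glycolysis list took 6.76% and 7.28% of summed mRNA RPKM in E85Q isolates, against 8.58% and 8.86% in WT isolates. The synthetase list took 0.677% and 0.713% against 0.814% and 0.768%. The leucine, isoleucine and valine list took 0.759% and 0.837% against 1.06% and 1.03%. The differences of these lists thus also include lower E85Q shares with methionine. BIO2, chosen after its values were seen, had a difference from WT in mRNA of 1.64, although 5 of the 6 tested genes of the biotin and thiamine list were lower against WT. Its mRNA was 7.88 and 7.55 RPKM in starved WT cells against 25.3 and 25.9 RPKM with methionine.

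Iron uptake genes rose less in E85Q cells than in the other strains. Their median log2 change of mRNA was 1.53 in E85Q cells, 3.07 in D87E cells and 3.09 in WT cells, and 14 of 15 genes were lower against each of WT and D87E in mRNA and in footprints. After centring 14 were lower in mRNA against each strain, and in footprints 12 were lower against WT and 14 against D87E. FRE5, one of the 15, passed the minimum through the starved WT and D87E libraries alone. FIT2, a siderophore-retaining wall protein like FIT3 (chrXV:1059531-1059992, sacCer3), had 40.8 and 35.3 RPKM of mRNA in starved E85Q cells, against 1249 and 1339 RPKM in starved WT cells and 888 and 1103 RPKM in starved D87E cells. With methionine it had 8.02 and 7 RPKM in E85Q cells and 10.9 and 10.7 RPKM in WT cells. No starved E85Q isolate came near the other strains, and the difference from WT was -4.58 (SE 0.16, adjusted p = 2.5e-07, limma). FIT3 mRNA likewise stood at 41.9 and 34 RPKM in starved E85Q cells, against 930 and 1068 RPKM in starved WT cells. LSO1, a small protein induced by low iron, had 0.269 and 1.31 RPKM in starved E85Q cells and 0.656 and 0.147 RPKM with methionine, against 19.7 and 30.7 RPKM in starved WT cells. It reached the minimum through the starved WT and D87E libraries alone, so nothing is read from its tests. TIS11 had 130 and 102 RPKM in starved E85Q cells against 946 and 911 RPKM in starved WT cells. Of 13 iron regulators, LSO1 included, 10 were lower against WT, 8 after centring.

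In the sulfate list 3 of 10 genes were higher and 2 lower against WT in mRNA, 6 higher and none lower after centring. SUL1 mRNA had a difference from WT of -0.09 (SE 0.12, adjusted p = 0.52, limma) and MET3 of 0.05 (SE 0.09, adjusted p = 0.65), and the whole list took 3.65% and 3.59% of summed RPKM in starved E85Q cells, against 3.52% and 3.53% in starved WT cells. Of the organic sulfur list, 8 of 10 genes were lower against WT and 1 higher, 7 and 1 after centring. They took 1.9% and 1.65% of summed mRNA RPKM in starved E85Q cells, against 3.61% and 4.08% in starved WT cells. JLP1 had 3592 and 2708 RPKM in starved E85Q cells, against 6847 and 7472 RPKM in starved WT cells and 5880 and 7075 RPKM in starved D87E cells. OPT1 had 293 and 264 RPKM against 822 and 860 RPKM in WT cells and 693 and 753 RPKM in D87E cells. The methionine permease MUP1 differed from WT by -0.81 (SE 0.11).

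Autophagy genes rose less in E85Q cells in mRNA, with 25 of 30 lower against each of WT and D87E and 19 and 16 after centring. Over all genes, 48.6% and 47.7% were lower, and after centring 986 and 914 of 4888. In footprints after centring, 11 of the 30 were lower and 1 higher against WT, and 9 lower and 1 higher against D87E. Over all genes, 774 and 729 of 4888 were lower there. ATG9 mRNA was 51.7 and 45.8 RPKM in starved E85Q cells against 114 and 119 RPKM in starved WT cells, a difference of -1.16 (SE 0.13, adjusted p = 0.00011, limma). Its footprints, however, were 21.2 and 21.4 RPKM in starved E85Q cells and 22.6 and 22.2 RPKM in starved WT cells, and the difference there was 0.03 (SE 0.08, adjusted p = 0.76, limma). ECM32, a helicase tied to translation termination, also had a difference from WT in TE, of 2.31. Its mRNA was 23.0 and 24.1 RPKM in starved E85Q cells and 78.1 and 71.2 RPKM in starved WT cells, while its footprints were 7.8 and 7.8 RPKM and 3.35 and 3.67 RPKM. CHA1 mRNA was 43.9 and 32.9 RPKM in starved E85Q cells against 160 and 176 RPKM in starved WT cells.

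GCN4 footprints of E85Q cells stood below those of the other strains with methionine. They were 117 and 116 RPKM with methionine in E85Q cells, against 294 and 267 RPKM in WT cells and 240 and 241 RPKM in D87E cells. Without sulfur they were 295 and 258 RPKM in E85Q cells, 309 and 284 RPKM in WT cells and 433 and 169 RPKM in D87E cells. The difference of the responses in footprints was 1.15 against WT (SE 0.45, adjusted p = 0.063, limma) and 1.06 against D87E (adjusted p = 0.091). Neither passed the threshold. With the isolate as a block the difference of 1.15 from WT did, as it did after centring (1.32), and the difference from D87E did without D87E isolate 887 without sulfur (1.73).

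**Figure D5:**
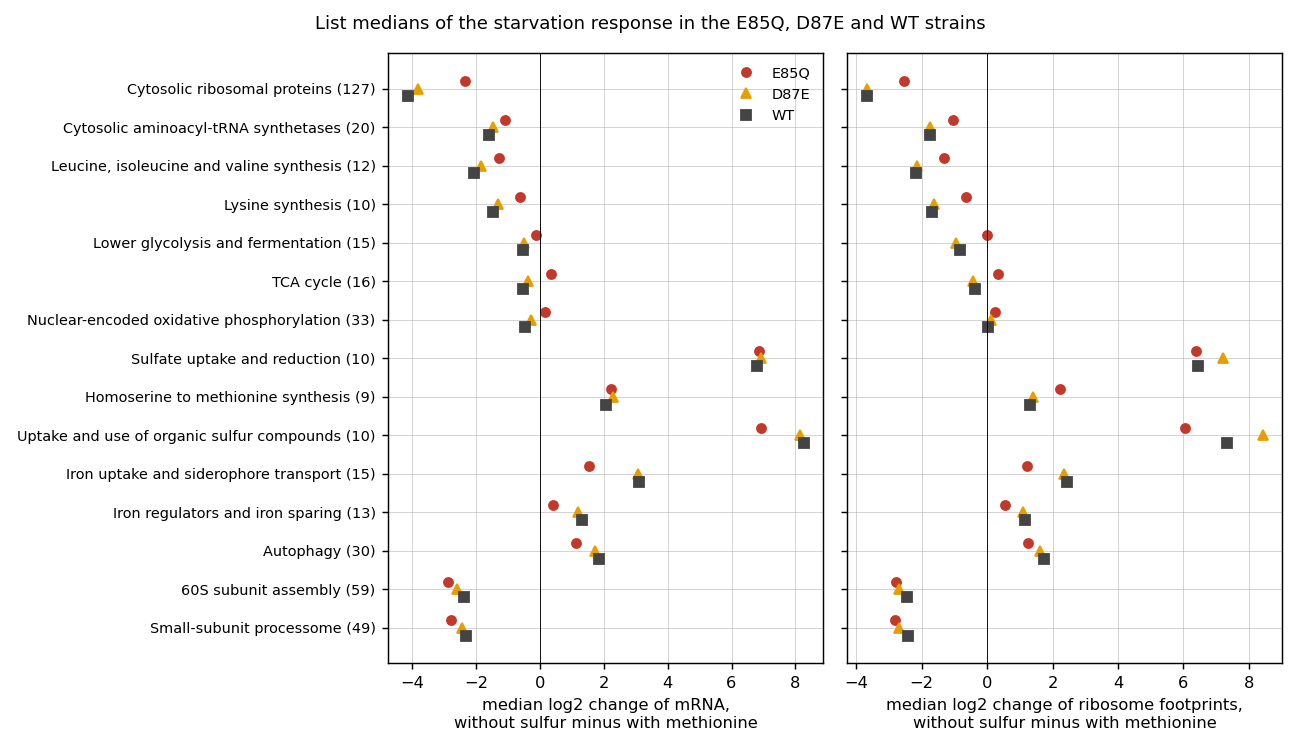
Median log2 change (without sulfur minus with methionine) of 15 lists in E85Q (circles), D87E (triangles) and WT cells (squares), mRNA and footprints. The E85Q circles lie nearer 0 than the other marks for ribosomal proteins, at -2.36 against -4.13 in WT cells in mRNA, and for iron uptake, at 1.53 against 3.09.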

How the data were processed

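Per the labels' protocols, footprints were made with RNase I and libraries of matched lysates were sequenced as single 50-base reads. The deposited tables hold RPKM values per gene, 1 column per library, with footprints of 18 to 34 bases, per the labels and headers. The submitters' processing notes name TopHat2 2.1.1, Bowtie 1.1.2 and sacCer3, with no role. Which positions were masked, how reads with several matches were treated and which reads set the scale are not given in the sources used here. Each table lists 7133 entries, of which 829 hold no values and 6304 do, and 5716 of these match a RefSeq locus tag (assembly R64).

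From the RPKM values, log2(RPKM + 1) was computed, and genes whose mean reached 5 RPKM in each table, 4888 in all, were kept. limma 3.58.1 (R 4.3.3) fitted 6 group means (3 genotypes in 2 media) over the 12 libraries of each table, with eBayes and an intensity trend, and p-values were adjusted by Benjamini-Hochberg over all 4888 genes. TE was fitted the same way. Calls used an adjusted p under 0.05. The p-values rest on the spread between the 2 isolates of a group, pooled over all 6 groups and moderated by eBayes. Depths were estimated from the steps of low RPKM values, where 67.1% to 80.6% of low values per library came out within 0.05 of a whole read. Such estimates of reads cover counting error only. The fit was checked on simulated data in which mRNA and footprints were given the same changes. Detection of true TE changes was therefore not checked.

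The isolate numbers pair the samples with and without methionine, since equal numbers mark the same strain isolate. The correlation of isolate deviations between media was 0.17 in mRNA, 0.41 in footprints and 0.37 in TE for E85Q, -0.18, -0.02 and -0.02 for WT, and -0.05, 0.05 and -0.04 for D87E. The members and the 64 gene lists were chosen with earlier results of these data known. Named genes are the 10 largest rises and falls per measure in both isolates, the 5 largest differences from WT and D87E each way, all tested sulfur genes, up to 4 called genes with the largest changes in every other list, GCN4, and genes whose mRNA and footprints were called in opposite directions. A few genes outside this rule (STE2, RPS9B and single genes in the comparison with WT) were chosen after their values were seen. Alternatives were other pseudocounts (0.5 and 10), no minimum or 20 RPKM, centring of libraries, E85Q samples alone, isolate as a block, no trend, subtraction of carried-over footprints (the lowest ratio with over without methionine among genes of at least 100 RPKM), and leaving out each sample.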

Additional observations from a re-analysis of the deposited data

Results flagged for a closer look

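The response to sulfur starvation differed between genotypes by limma tests of the difference itself, with Benjamini-Hochberg adjustment over 4888 genes. Against WT, 2954 genes differed in mRNA, 2025 in footprints and 1069 in TE. Against D87E the numbers were 2819, 1717 and 1828.

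The largest positive differences between E85Q and WT in mRNA were those of RPS9A (3.57), RPS22B (2.99), YBR191W-A (2.77), RPL8A (2.68) and LEU1 (2.66). The largest negative ones were COS1 (-6.48), FIT2 (-4.58), LSO1 (-4.28), FIT3 (-4.21) and FRE5 (-4.05). COS1 is a member of a subtelomeric repeat family, and the others are genes of iron uptake or low-iron response. LSO1 and FRE5 reached the minimum through the starved WT and D87E libraries alone. They had to differ, so nothing is read from their tests. COS1 mRNA was 7.4 and 0 RPKM in starved E85Q cells and 10.9 and 12.2 RPKM with methionine, so isolate 625 was listed at 0 and isolate 623 was not.

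In footprints RPS9A (3.34), RPS22B (2.64), RPS2 (2.59), RPS20 (2.55) and RPS31 (2.44), all genes of the small ribosomal subunit, differed most upward from WT. LSO1 (-4.76), GRE1 (-4.25), FIT2 (-4.24), FIT3 (-3.35) and FRE5 (-3.32) differed most downward. LSO1 and FRE5 were near 0 in E85Q cells and reached the minimum of 5 RPKM through the starved WT and D87E libraries alone, so they had to differ and their values are given as a description. GRE1, a stress-induced hydrophilin, had 108 and 44.4 RPKM of footprints in the starved E85Q isolates.

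In TE the upward differences from WT were COS1 (8.53), GRX4 (2.40), ECM32 (2.31), AAD6 (2.0) and YEL073C (1.80), and the downward ones were YBR191W-A (-4.92), YDR154C (-3.43), RPS27B (-1.57), RPL8B (-1.41) and RPS26B (-1.27). YBR191W-A lies beside RPL21A and YDR154C is marked dubious beside CPR1, and ribosomal protein copies and COS genes share sequence, so these values are uncertain. The calls of YDR154C and YEL073C were lost when single samples were left out. Beyond the statements in this paragraph no explanation was tested.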

How the results depend on the processing

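Counts of called genes kept within 1.5 times under most alternatives. The exceptions in TE of E85Q cells, against 303 calls, were pseudocount 10 (533 calls), E85Q samples alone (156) and single samples left out (96 to 161). With a minimum of 20 RPKM fewer genes were tested, and the difference from WT gave 1729 calls in mRNA and 629 in TE, and that from D87E 1609 in mRNA and 1051 in TE. Centring gave 1026 calls in TE against D87E. Leaving out single samples gave 385 to 1126 calls in TE against WT, 1147 to 1801 in TE against D87E and 1069 to 2186 in footprints against D87E. The cause was not tested.

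With the isolate as a replicate block, E85Q cells had 3723 calls in mRNA, 3714 in footprints and 253 in TE. Of the gene calls given in the text, the block changed that of GCN4 footprints against WT (1.15) and no other.

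Some TE changes of called genes turned sign. With pseudocount 10 these were YBR191W-A (1.07), GTO1 (-0.15), DAL3 (-0.27) and DBP2 (-0.30). With carried-over footprints subtracted they were SUL1 (1.26), AGP3 (0.93), MET10 (0.92), MET3 (1.35), MET5 (1.12), MET14 (0.50), MET1 (1.08), YCT1 (1.87), MHT1 (0.95), SUL2 (0.97), MET17 (0.23), BDS1 (1.11) and MET16 (0.63), and the SUL1 difference from D87E in TE (0.88). The subtracted share was 0.497% in isolate 623 and 1.14% in isolate 625. SUL1 set it in both, so the turn of SUL1 followed from the subtraction itself. Over all alternatives and all genes chosen to be named, a call was lost in 80 cases in mRNA, 74 in footprints and 179 in TE. Genes under 5 RPKM were not tested.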
